A study of Mus musculus with 22 samples.

Results

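Mouse embryonic stem cells of line B20 grown with PD plus SB (the medium called R2i) were compared with cells of the same line grown with PD alone. All arrays titled B20 R2i (3 arrays) and B20 PD (3 arrays) on the MouseRef-8 v2 platform were taken, which makes 6 of the 22 arrays of the series. Line B20 came from blastocysts of the C57BL/6 strain, with no transgene or deletion named in the labels. PD is PD0325901, which inhibits the kinase MEK. SB is SB431542, which blocks the type I receptors of Activin, Nodal and TGF-beta. In both groups the base medium was N2B27, serum-free, with the cytokine LIF. Per the labels, B20 was derived and kept in PD plus SB, and the PD cells had then spent 10 passages without SB. Adding SB therefore cannot be told apart from staying in the medium of derivation. The labels do not say that replicates were separate cultures, and the spread behind the p-values may thus be technical only. All B20 arrays lay on 1 chip, with the PD arrays at the first positions and the R2i arrays at the next, so medium and position cannot be told apart.

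Nodal and Activin signal through type I receptors that phosphorylate SMAD2 and SMAD3, and SB blocks this kinase step. In mouse embryonic stem cells the pathway is active through Nodal and related ligands made by the cells themselves, and its best known targets are its own feedback inhibitors, the secreted antagonists Lefty1 and Lefty2. BMP ligands use other type I receptors and SMAD1 and SMAD5, which share SMAD4 with the Nodal branch, and induce the Id genes. MEK inhibition with LIF holds these cells in the naive, undifferentiated state.

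Between 11346 and 11670 of 25697 probes (44.2% to 45.4%) were detected per array, and the number of arrays limits the precision. Levels below are normalised log2 signals, in which 1 unit is a 2-fold difference, and SE is the moderated standard error of a log2 change of R2i minus PD. An adjusted p below 0.05 over the 9207 genes tested counted as past the test. All 5 embryonic stem cell markers (Pou5f1, Sox2, Nanog, Zfp42 and Esrrb) were detected on all arrays of both media. Of 6 fibroblast markers, Thy1 and Twist1 were detected, and Col1a1, Col1a2, Col3a1 and Postn were not. Their mean level was 4.74 to 4.76 in R2i and 4.68 to 4.74 in PD. None of 3 neural markers was detected in either medium.

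PD replicate 3 lay apart from the other PD arrays. On the first principal component, which held 52.1% of the variance, the R2i arrays had scores of -11.7, -12.8 and -14.2, and the PD arrays 15.6, 17.1 and 5.9 for replicates 1, 2 and 3. PD replicate 3 also stood alone on the second component (17.9% of the variance) with 16.4, against -4.3 to 1.1 in R2i and -2.6 and -7.9 in the other PD arrays. The main counts below are therefore given with and without it, as are the values of some genes. Unless stated otherwise, results use all arrays.

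Of 9207 genes, 77 passed the test and changed at least 2-fold (0.836%), 23 higher (0.25%) and 54 lower (0.587%) in R2i. At any fold 852 genes passed (9.25%), 407 higher (4.42%) and 445 lower (4.83%), whereas 2185 had an unadjusted p below 0.05. When arrays were scaled to their medians instead of quantile normalised, the 874 genes that passed split into 233 higher and 641 lower, so the share that fell depends on the scaling. Leaving out PD replicate 3 gave 98 genes at 2-fold (1.06%), 39 higher (0.424%) and 59 lower (0.641%), and 1158 genes passed at any fold (12.6%), 562 higher (6.1%) and 596 lower (6.47%). Both counts at 2-fold shared 69 genes. The 8 genes called only with PD replicate 3 (named after their values were seen) were 4930447C04Rik, Dclk3, Prdm14, Tmem117, Nipal2, LOC100046802, Pdgfc and Spink1. Genes called only without it numbered 29, among them Id3, Dnmt3b, Cdkn1c, Tdgf1 and Gsc. The any-fold count also fell by over 1.5 times without R2i replicate 3 (521 genes), PD replicate 1 (495) or PD replicate 2 (541). R2i and PD arrays did not overlap for 76 of the 77 genes, the exception being Osr2, against 25.9% of all genes tested. The 77 were called on these same arrays, so this largely follows from the call and adds no support to it. When no background was subtracted, 19 genes were called 2-fold. Of 82 genes that were named by rule and passed, 23 lost it in at least 1 other setting, among them Sox2, Krt8, Dusp4, Tbx6, Atf5, Axl, Ccnd3, Rb1, Ndrg1, Eno2, Mbd1, Crabp2, Gadd45a, Dpysl3, Socs2 and Thy1. Their highest adjusted p ranged between 0.0536 and 0.192.

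**Figure D1:**
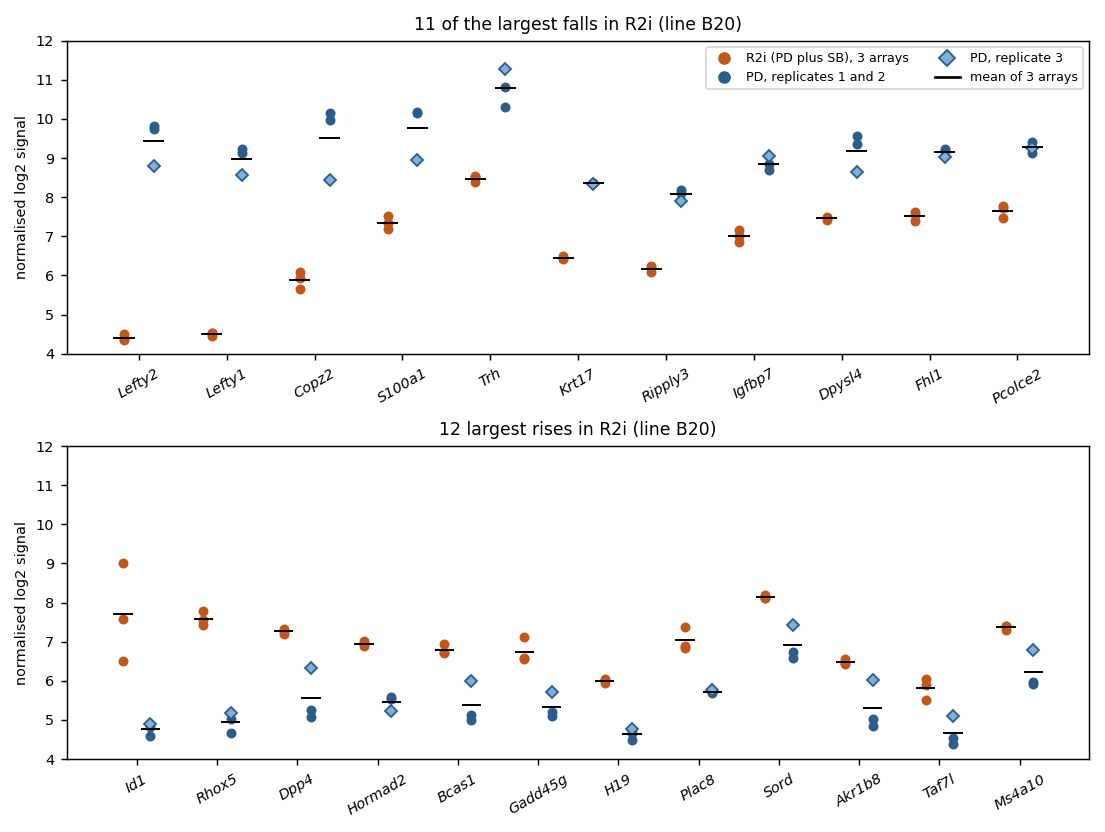
Normalised log2 signal on each B20 array for 11 of the largest falls (upper panel) and the 12 largest rises (lower panel) in R2i among genes called 2-fold with and without PD replicate 3. Each point is 1 array, R2i left of PD, the diamond is PD replicate 3 and bars are means of 3 arrays. PD replicate 3 lies nearer to the R2i arrays than the other PD arrays do for Copz2, S100a1, Dpp4 and Akr1b8, and farther from them for Trh and Hormad2.

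Among the largest falls were both Lefty genes, feedback inhibitors of Nodal. Lefty2 had levels of 4.5, 4.37 and 4.36 in R2i, and 9.81, 9.73 and 8.81 in PD. Lefty1 had 4.46, 4.53 and 4.53 in R2i, and 9.13, 9.22 and 8.56 in PD. Each of the 3 PD arrays detected both genes and no R2i array did, and PD replicate 3 was the lowest PD array for each. A gene below detection in one medium has only a bound, set by the dimmest detected probe of each array. By this bound Lefty2 was at least 21.0-fold lower in R2i (adjusted p = 5.26e-09). For Lefty1 the level in R2i was at least 15.04-fold lower (adjusted p = 4.47e-11). These bounds were 26.2-fold and 17.35-fold without PD replicate 3.

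Other genes of the Nodal, Activin and TGF-beta response fell by less. Of 24 listed targets and feedback genes, 17 were measured, of which 8 were lower, 1 was higher and 8 did not pass, with a median log2 change of -0.31 against 0.01 over all genes tested. With genes below detection set to their bounds the median was -0.21. Beside this and each list count below with all arrays stand 4.83% lower and 4.42% higher over all genes tested. Spsb1, which encodes a substrate adaptor of a ubiquitin ligase, had 5.84, 5.89 and 5.6 in R2i and 7.14, 7.46 and 6.80 in PD (log2 change -1.36, SE 0.14, adjusted p = 8.48e-06). The Nodal co-receptor gene Tdgf1 (Cripto) had 8.87, 8.43 and 8.71 in R2i and 9.40, 10.10 and 9.45 in PD (-0.98, SE 0.16, adjusted p = 0.00103). Skil, whose product SnoN represses SMAD-driven transcription, fell by 0.80 on the log2 scale (adjusted p = 0.000415). Smad6, an inhibitory SMAD, was detected in PD alone and was at least 1.07-fold lower in R2i (adjusted p = 0.0172). The 1 riser was Id3, which is also a BMP target. The change of Nodal itself was small: 8.27, 7.75 and 7.93 in R2i against 8.46, 8.54 and 8.26 in PD (-0.44, SE 0.13, adjusted p = 0.0437). Its test was lost without R2i replicate 2 (adjusted p = 0.192), R2i replicate 3 (0.127), PD replicate 1 (0.126) or PD replicate 2 (0.155), in a range of 0.0109 to 0.192 over 17 other settings.

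Several genes often used as readouts of this pathway did not pass. Tgif1 changed by -0.31 (adjusted p = 0.0746), the related corepressor gene Tgif2 by 0.08, the connective tissue growth factor gene Ccn2 by 0.37, and the cell cycle inhibitor gene Cdkn1a by 0.02. Pmepa1 was detected on no B20 array of either medium. Among ligands, receptors and SMADs, 14 of 25 listed genes were measured and 0 passed in either direction, with a median of -0.08. In that list Tgfbr1 had 9.18, 9.28 and 9.0 in R2i and 9.02, 9.32 and 9.20 in PD, Smad2 changed by -0.18 and Smad3 by -0.06. Smad7 was not among the genes tested.

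**Figure D2:**
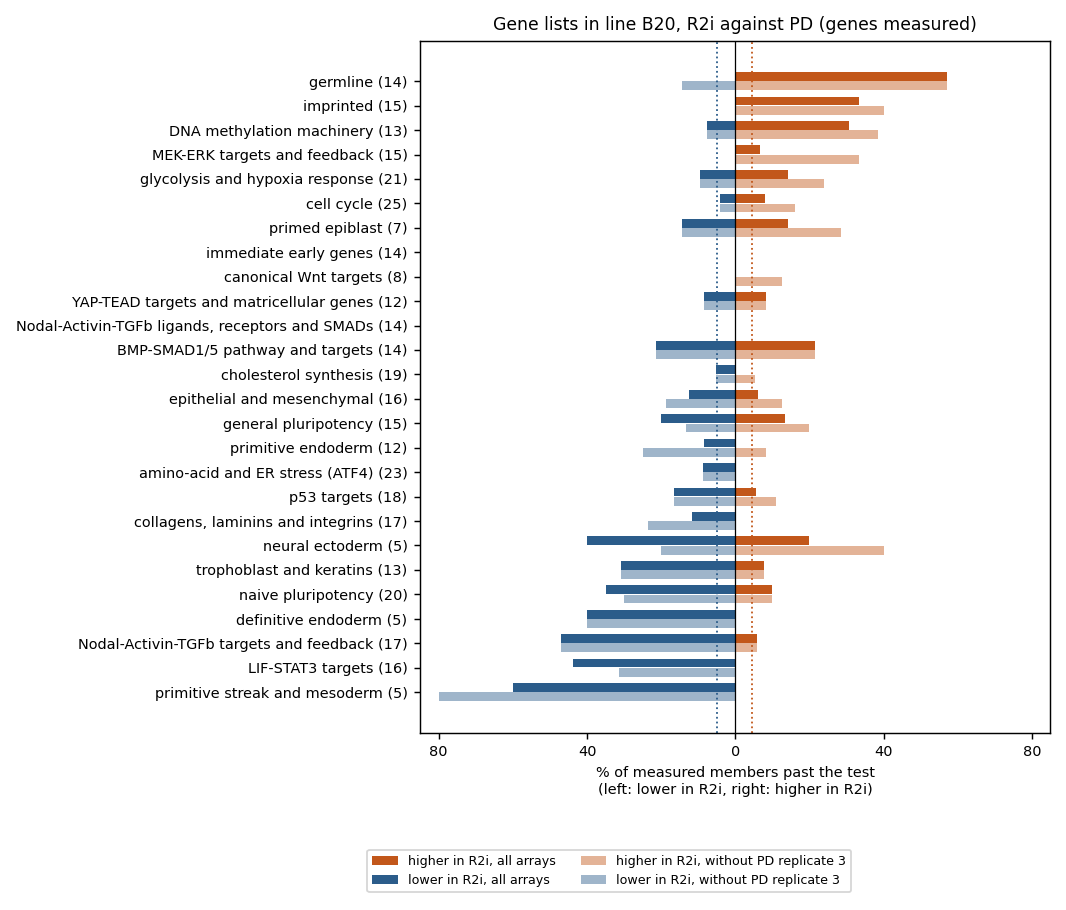
Percent of the measured genes of each list that passed the test and were lower (bars to the left) or higher (bars to the right) in R2i than in PD, with the number measured in brackets. Dark bars use all arrays, pale bars leave out PD replicate 3, dotted lines mark the shares over all 9207 genes (4.83% lower and 4.42% higher), and lists with under 5 measured genes are not drawn. The germline list stands out on the higher side (8 of 14), and the primitive streak, LIF-STAT3 and Nodal lists on the lower side.

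Genes of the BMP branch moved in both directions. Of 20 listed, 14 were measured, 3 were higher, 3 were lower and 8 did not pass, with a median of 0.15 (0.05 at the bounds). Id1, an inhibitor of basic helix-loop-helix factors and a direct BMP-SMAD target, was among the largest rises, with 9.01, 7.59 and 6.52 in R2i and 4.82, 4.58 and 4.90 in PD. It was detected on all R2i arrays and on no PD array, and was at least 6.16-fold higher in R2i (adjusted p = 9.63e-05). The spread among R2i arrays was wide (SD 1.25), and the fitted log2 change was 2.28 without R2i replicate 1 and 3.53 without R2i replicate 3. Id3 had 7.0, 6.79 and 6.42 in R2i and 5.58, 5.55 and 6.31 in PD (0.92, SE 0.21, adjusted p = 0.0101). PD replicate 3 lay just below the lowest R2i array for Id3, and the change was 1.17 without it. Bmp4, which encodes the ligand, had 9.24, 9.13 and 9.12 in R2i and 8.22, 7.56 and 8.47 in PD (1.08, SE 0.19, adjusted p = 0.00116). In the other direction Id4 had 6.64, 6.30 and 6.31 in R2i and 7.73, 7.39 and 7.73 in PD (-1.2, SE 0.13, adjusted p = 2.01e-05). Hey1, a transcriptional repressor that Notch and BMP induce, fell by 0.95 (SE 0.10). Id2 did not pass, at 8.78, 8.22 and 7.79 in R2i and 7.86, 7.95 and 7.76 in PD. R2i replicate 1 was the highest and R2i replicate 3 the lowest R2i array for Id1, Id2 and Id3.

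Start-site windows of 2 Id genes that moved in opposite directions are shown, because SMAD proteins bind short known elements. Each window, from RefSeq on build GRCm38.p6, holds 250 bases before and 50 after the annotated start. Capitals mark the SMAD box CAGAC and the GC-rich SMAD1/5 element GGCGCC on either strand, which share no bases with one another here. Id3 lies at chr4:136143572-136143871 on the plus strand and holds 2 SMAD boxes, 1 on each strand, and no GC-rich element. Id4 lies at chr13:48260866-48261165 on the plus strand and holds 1 GC-rich element and no SMAD box.
Id3: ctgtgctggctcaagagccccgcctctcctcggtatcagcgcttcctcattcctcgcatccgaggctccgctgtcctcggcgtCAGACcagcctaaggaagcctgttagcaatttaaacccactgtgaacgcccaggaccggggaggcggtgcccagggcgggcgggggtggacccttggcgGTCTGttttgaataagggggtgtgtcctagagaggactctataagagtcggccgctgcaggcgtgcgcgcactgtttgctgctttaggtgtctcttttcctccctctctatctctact
Id4: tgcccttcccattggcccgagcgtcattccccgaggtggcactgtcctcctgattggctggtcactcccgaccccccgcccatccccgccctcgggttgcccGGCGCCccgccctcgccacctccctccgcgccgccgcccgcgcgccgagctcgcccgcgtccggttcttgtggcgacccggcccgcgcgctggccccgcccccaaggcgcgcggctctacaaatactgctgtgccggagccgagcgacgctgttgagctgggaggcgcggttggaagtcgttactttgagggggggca

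Windows were given for 45 of the 77 genes (56 windows). The SMAD box stood in 55% of the 20 windows of genes higher in R2i, 44.4% of the 36 windows of genes lower in R2i and 49.6% of all 32851 windows. The GC-rich element stood in 0 of the 20, in 19.4% of the 36 and in 11.9% of all windows. These matches are a description of letters in a short stretch, and no test was made on them.

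Core pluripotency factors changed little or not past the test. Pou5f1 (Oct4) had 12.23, 12.22 and 12.25 in R2i and 12.22, 12.36 and 12.36 in PD. Esrrb, Klf4 and Zfp42 (Rex1) did not pass, with log2 changes of -0.11, -0.24 and -0.20. Sox2 fell by 0.45 on the log2 scale (SE 0.11, adjusted p = 0.0117), with 9.53, 9.42 and 9.25 in R2i and 9.86, 9.95 and 9.75 in PD. Nanog had 12.10, 11.95 and 12.01 in R2i and 12.17, 12.59 and 12.41 in PD (-0.37, SE 0.10, adjusted p = 0.0338). All R2i arrays were below all PD arrays for Sox2 and Nanog, and the call of Nanog was lost without R2i replicate 2 (adjusted p = 0.122), R2i replicate 3 (0.0895), PD replicate 2 (0.160) or PD replicate 3 (0.0582), in a range of 0.00581 to 0.160 over 17 other settings.

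In the naive pluripotency list 20 of 23 genes were measured, 2 were higher, 7 were lower and 11 did not pass, with a median of -0.15. In line B18, described below, 4 of this list were higher and 4 lower (median -0.02). Prdm14, a regulator of naive pluripotency and germ cell fate, had 6.32, 6.08 and 6.11 in R2i and 7.18, 7.03 and 7.32 in PD (-1.0, SE 0.13, adjusted p = 8.1e-05). Smaller falls were seen for Dppa5a (-0.64), Tbx3 (-0.62), Jam2 (-0.54), Tcl1 (-0.46) and Klf5 (-0.38). The 2 risers were Dppa3 (Stella), a maternal factor that guards against demethylation in the zygote, and the ETS-family gene Spic. Dppa3 had 7.55, 7.50 and 7.60 in R2i and 6.4, 6.69 and 6.33 in PD (1.08, SE 0.17, adjusted p = 0.00051). Spic had 7.44, 7.04 and 6.92 in R2i and 6.18, 6.47 and 6.09 in PD (0.89, SE 0.15). No R2i array reached the PD range for either gene.

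In the general pluripotency list 15 of 16 genes were measured, 2 were higher (Dnmt3b and the polycomb gene Phc1) and 3 were lower, among them Tdgf1 and Sox2. In the primed epiblast list 7 of 15 genes were measured, and Otx2, a homeobox factor of the epiblast and forebrain, was the 1 that fell. Its levels were 7.92, 7.84 and 7.89 in R2i and 9.27, 9.17 and 8.88 in PD (-1.22, SE 0.10, adjusted p = 8.93e-07). Dnmt3b, the de novo DNA methyltransferase that both lists hold, had 11.92, 11.92 and 11.98 in R2i and 10.86, 10.83 and 11.20 in PD (0.98, SE 0.10, adjusted p = 4.84e-06). Thus 2 genes that are both counted as epiblast markers moved in opposite directions. Fgf5 was not among the genes tested.

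Few listed genes of the primitive streak, mesoderm and endoderm were measured, and those that passed with all arrays were lower in R2i. Of 16 listed streak and mesoderm genes, 5 were measured, 3 were lower and 0 higher, and without PD replicate 3 there were 4 lower. In line B18, described below, 1 of this list was higher and 1 lower. Fgf17, a growth factor of the streak and midbrain, had 6.13, 6.49 and 6.34 in R2i and 7.61, 7.41 and 7.53 in PD (-1.2, SE 0.11, adjusted p = 2.34e-06). Gsc (goosecoid), a homeobox gene of the organizer, had 6.09, 6.09 and 5.77 in R2i and 6.80, 7.25 and 6.38 in PD (-0.83, SE 0.16, adjusted p = 0.00264), with PD replicate 3 nearest to R2i. The mesoderm gene Tbx6 was detected in PD alone, at least 1.07-fold lower in R2i (adjusted p = 0.0161). Trh, which encodes thyrotropin-releasing hormone and stands in the definitive endoderm list, had 8.51, 8.38 and 8.55 in R2i and 10.81, 10.29 and 11.27 in PD (-2.32, SE 0.17, adjusted p = 2.68e-07). In that list 5 of 10 genes were measured and Trh and Gsc were the 2 that passed. The definitive endoderm list had 2 higher and 2 lower in B18. Of 12 measured primitive endoderm genes 1 passed, Sox7, with 7.19, 7.25 and 7.08 in R2i and 8.40, 8.25 and 8.06 in PD (-1.06, SE 0.11). That list had 3 lower and 1 higher without PD replicate 3, the riser being the endocytic receptor subunit gene Amn (0.63). The primitive endoderm list had 1 higher and 6 lower in B18. The defining primitive endoderm markers Gata4, Gata6, Sox17 and Pdgfra were detected on no B20 array of either medium.

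The keratin genes Krt17, Krt42 and Krt8 fell. Krt17 had 6.42, 6.45 and 6.50 in R2i and 8.36, 8.37 and 8.33 in PD (-1.90, SE 0.20, adjusted p = 1.24e-05). Krt42 had 7.97, 8.02 and 8.02 in R2i and 9.46, 9.55 and 9.71 in PD (-1.57, SE 0.11, adjusted p = 6.8e-08). Both encode type I intermediate filament proteins, and PD replicate 3 lay close to the other PD arrays for both. Krt8, a type II keratin of simple epithelia, fell by 0.73 (SE 0.17, adjusted p = 0.0104), whereas Krt18 and Krt7 did not pass (-0.28 and -0.21). The trophoblast and keratin list had 13 of 20 genes measured, 4 lower and 1 higher (H19), with a median of -0.28. In line B18 this list had 5 higher and 3 lower, with a median of 0.003. Of 4 trophoblast markers none was detected on all R2i arrays, and 2 (Eomes and Krt7) were detected on all PD arrays.

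Germline genes were the list with the highest share of rises. Of 29 listed, 14 were measured, 8 were higher, 0 lower and 6 did not pass, with a median of 0.70 (0.66 at the bounds), against 4.42% of all genes higher. Rhox5 (Pem), an X-linked homeobox gene of the reproductive homeobox cluster, had 7.55, 7.78 and 7.44 in R2i and 4.65, 5.02 and 5.18 in PD (2.64, SE 0.17, adjusted p = 5.98e-08). It was detected on all R2i arrays and on 1 of 3 PD arrays. Hormad2, which encodes a HORMA-domain protein of meiotic chromosomes, had 7.01, 6.96 and 6.88 in R2i and 5.57, 5.54 and 5.24 in PD (1.5, SE 0.11, adjusted p = 2.88e-07).

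The other risers of the germline list were smaller. Taf7l, a germ cell subunit of TFIID, had 6.05, 5.88 and 5.52 in R2i and 4.53, 4.38 and 5.10 in PD (1.15, SE 0.16, adjusted p = 0.000249), and was detected on 1 PD array. Fkbp6, needed for meiosis and piRNA function, had 8.11, 8.26 and 7.81 in R2i and 6.75, 6.85 and 7.46 in PD (1.04, SE 0.15). The change of Fkbp6 was 1.26 without PD replicate 3. Piwil2, a PIWI protein that binds piRNAs, rose by 0.82, Stk31 by 0.88 and the meiotic cohesin gene Stag3 by 0.66. The X-linked gene Xlr4a was detected on all R2i arrays and on no PD array, at least 1.17-fold higher (adjusted p = 0.00313). Dazl and Ddx4, defining genes of later germ cells, did not pass, with 5.82, 5.74 and 5.77 (Dazl) in R2i and 5.21, 5.46 and 5.62 in PD. Leaving out PD replicate 3, the list had 8 higher and 2 lower, the X-linked genes Rhox6 (-0.71) and Rhox9 (-0.73), so neighbours of Rhox5 in its cluster moved the other way.

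Genes of DNA methylation and imprinting were higher where they passed, with few exceptions. In the DNA methylation list 13 of 19 genes were measured, 4 were higher (Dnmt3b, Apobec1, Mbd1 and Uhrf2) and 1 was lower (Prdm14), with a median of 0.17. Leaving out PD replicate 3 gave 5 higher and 1 lower. Dnmt1 and Uhrf1, which maintain methylation at replication, did not pass (0.20 and 0.13), nor did Dnmt3l, at 13.82, 13.66 and 13.61 in R2i and 13.46, 13.29 and 13.61 in PD. In the imprinted list 15 of 30 genes were measured, 5 were higher, 0 lower and 10 did not pass, with a median of 0.35 (0.15 at the bounds). The imprinted list had 6 higher and 0 lower without PD replicate 3. H19, a maternally expressed non-coding RNA, had 6.06, 6.03 and 5.94 in R2i and 4.67, 4.48 and 4.77 in PD. It was detected in R2i alone and was at least 1.90-fold higher (adjusted p = 1.77e-06). Its neighbour Igf2, which is paternally expressed, had 8.73, 8.66 and 8.74 in R2i and 7.87, 7.98 and 8.01 in PD (0.75, SE 0.10, adjusted p = 0.00012). Cdkn1c (p57), a maternally expressed cell cycle inhibitor, had 8.07, 7.93 and 8.06 in R2i and 6.91, 6.89 and 7.31 in PD (0.98, SE 0.12, adjusted p = 4.92e-05). Slc38a4 and Peg10 passed at levels near background, Slc38a4 at least 1.197-fold higher (adjusted p = 0.0305). Slc38a4 passed in 9 of 16 other settings (adjusted p up to 0.156). Array signal does not tell the parental alleles apart.

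MEK was inhibited in both media, and few targets of the MEK-ERK pathway passed the test with all arrays. Of 22 listed, 15 were measured, 1 was higher (Dusp4, 0.52, SE 0.12, adjusted p = 0.00935) and 0 lower. The median was 0.33 against 0.01 over all genes tested, and 0.41 without PD replicate 3. In line B18, described below, the median of this list was -0.29, with 0 higher and 2 lower. Dusp6, a phosphatase gene that closely follows ERK activity, had 9.93, 9.83 and 9.76 in R2i and 9.87, 9.59 and 10.17 in PD. Of the 15, 5 were higher without PD replicate 3, against 6.1% of all genes tested. Joining Dusp4 were the ETS genes Etv1, Etv4 and Etv5 and the feedback inhibitor gene Spry4. PD replicate 3 was the highest PD array for these 4 genes, for example Etv4 with 7.23, 7.23 and 7.37 in R2i and 6.77, 6.57 and 7.49 in PD.

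Immediate early genes, which respond within minutes to growth factors and to handling, varied most among PD arrays and not between media. Of 18 listed, 14 were measured and 0 passed with or without PD replicate 3. Egr1 had 12.68, 12.44 and 12.48 in R2i and 12.35, 10.70 and 12.77 in PD. Fos had 10.53, 10.75 and 11.15 in R2i and 11.51, 10.07 and 12.07 in PD. Fosb had 6.86, 7.79 and 7.93 in R2i and 8.19, 5.36 and 8.63 in PD. PD replicate 2 was the lowest of all 6 arrays for these 3 genes and PD replicate 3 the highest. The median of PD replicate 3 minus the other PD arrays was 0.44 over this list and 0.41 over the MEK-ERK list, against -0.01 over all genes tested.

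**Figure D3:**
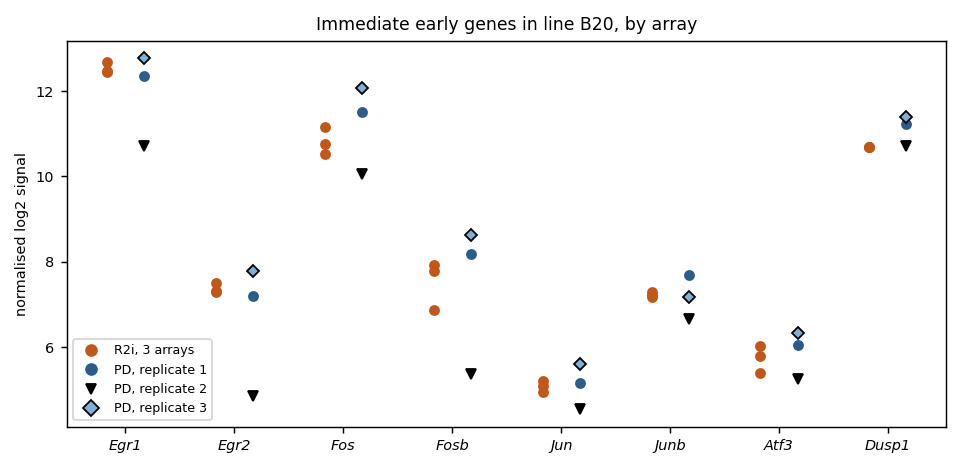
Normalised log2 signal of 8 immediate early genes on each B20 array, R2i left of PD, with a separate symbol for each PD replicate. PD replicate 2 has the lowest and PD replicate 3 the highest level for Egr1, Egr2, Fos, Fosb, Jun and Atf3, with the R2i arrays between them.

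LIF was present in both media, and 7 of 16 measured LIF-STAT3 targets were lower and 0 higher in R2i (22 listed, median -0.24). Over all genes tested 4.83% were lower. In line B18, described below, 3 of these targets were lower and 1 was higher (median -0.12). Bcl3, an IkB-family gene, had 5.19, 4.86 and 5.01 in R2i and 5.88, 6.03 and 5.86 in PD (-0.90, SE 0.14, adjusted p = 0.000506), and was detected on 1 R2i array. In B18 Bcl3 changed by -0.11 (adjusted p of the difference between lines 0.0326). The kinase gene Pim3 had 11.65, 11.59 and 11.81 in R2i and 12.47, 12.40 and 12.01 in PD (-0.61, SE 0.12, adjusted p = 0.00365). Socs3, the feedback inhibitor of LIF signalling, fell by 0.33, Socs2 by 0.39 and Icam1 by 0.56, while Stat3 (-0.16) and the receptor genes Lifr (0.06) and Il6st (0.00) did not pass. There were 5 lower without PD replicate 3, with Socs3 and Socs2 no longer past the test.

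Lists of metabolism, stress and growth had few members past the test. Among glycolysis and hypoxia genes 21 were measured, 3 were higher (Eno2, Pdk1 and Ndrg1, 0.43 to 0.48) and 2 were lower (Egln3 and Car9). Leaving out PD replicate 3 gave 5 higher and 2 lower. Of 19 cholesterol synthesis genes Ebp alone passed with all arrays (-0.51), and 1 was higher and 1 lower without PD replicate 3. Of 23 amino-acid and ER stress genes 2 were lower, Xbp1 (-0.75) and Atf5 (-0.50). In B18 Xbp1 changed by 0.16 (not past the test) and Atf5 rose by 0.53 (adjusted p = 0.014), with 5 of this list higher and 1 lower. Of 18 p53 targets 3 were lower and 1 was higher. Among these Pmaip1 (Noxa), which promotes apoptosis, had 6.54, 6.20 and 6.94 in R2i and 7.96, 8.14 and 8.08 in PD (-1.5, SE 0.15, adjusted p = 5.61e-06), whereas Cdkn1a, Mdm2 and Bax did not pass. Of 25 cell cycle genes 2 were higher (Cdkn1c and Rb1) and 1 lower (Ccnd3), and Ccnb1, Cdk1 and Pcna did not pass. The cell cycle list had 4 higher and 1 lower without PD replicate 3. No canonical Wnt target of 8 measured passed with all arrays, and 1 was higher without PD replicate 3. Axin2 had 5.8, 6.08 and 5.91 in R2i and 5.91, 6.19 and 5.44 in PD.

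Genes of cell contact and matrix also changed little. Of 16 epithelial and mesenchymal genes Mmp14 (-0.68) and Cldn4 (-0.57) were lower and the splicing factor gene Esrp1 (0.44) was higher. Leaving out PD replicate 3 gave 2 higher and 3 lower. E-cadherin (Cdh1) did not pass, with 10.00, 9.83 and 9.94 in R2i and 10.00, 10.17 and 10.02 in PD. Of 17 collagen, laminin and integrin genes Nid1 (-0.47) and Itgb5 (-0.37) were lower and 0 higher, with a median of -0.23. That list had 4 lower and 0 higher without PD replicate 3. Nid1 passed in 10 of 17 other settings (adjusted p up to 0.153) and Itgb5 in 11 of 17 (up to 0.105), the call of Itgb5 being lost without PD replicate 3. Of 12 YAP-TEAD and matricellular genes Tead4 was lower (-0.54) and Axl higher (0.35). Of 5 neural ectoderm genes measured, Crabp2 was higher (0.71), and the collapsin response mediator genes Dpysl4 and Dpysl3 were lower. Of 3 fibroblast genes tested Thy1 was higher (0.59), and the 2-cell-like gene Zscan4c, the 1 measured of its list, was detected on no B20 array.

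Large changes also came from genes in no signalling list. Copz2, which encodes a zeta subunit of the COPI coat and hosts a microRNA, had 5.92, 5.64 and 6.08 in R2i and 9.99, 10.15 and 8.43 in PD (-3.64, SE 0.37, adjusted p = 7.61e-06). The change was -4.19 without PD replicate 3, the lowest of the PD arrays, and -2.79 with the mean of all probes of the gene. The calcium-binding gene S100a1 had 7.34, 7.18 and 7.51 in R2i and 10.15, 10.18 and 8.96 in PD (-2.42, SE 0.23, adjusted p = 3.84e-06). The change of S100a1 was -2.82 without PD replicate 3. Ripply3, a transcriptional corepressor gene, had 6.25, 6.20 and 6.08 in R2i and 8.18, 8.12 and 7.91 in PD (-1.90, SE 0.13). Genes for secreted proteins fell as well, Igfbp7, which binds insulin-like growth factors, by 1.85 (SE 0.12) and Pcolce2, an enhancer of procollagen processing, by 1.62 (SE 0.15). Dpysl4 fell by 1.73 (SE 0.18) and the LIM-domain gene Fhl1 by 1.63 (SE 0.11). The changes of Dpysl4 and Fhl1 were -2.00 and -1.69 without PD replicate 3.

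Among rises, Dpp4, a cell-surface peptidase, had 7.19, 7.28 and 7.32 in R2i and 5.08, 5.25 and 6.33 in PD (1.71, SE 0.25, adjusted p = 0.000252), and 2.10 without PD replicate 3. Gadd45g, a gene of growth arrest, had 6.58, 6.55 and 7.11 in R2i and 5.09, 5.21 and 5.70 in PD (1.41, SE 0.17, adjusted p = 5.58e-05). Plac8 had 6.85, 6.89 and 7.38 in R2i and 5.69, 5.70 and 5.77 in PD (1.32, SE 0.12). The R2i arrays were above all PD arrays for each of these genes. Sord, sorbitol dehydrogenase, rose by 1.23 (SE 0.20), the aldo-keto reductase gene Akr1b8 by 1.19 (SE 0.21), Bcas1 by 1.42 (SE 0.19) and the membrane protein gene Ms4a10 by 1.14 (SE 0.18). Leaving out PD replicate 3 gave rises of 1.48 for Sord, 1.56 for Akr1b8, 1.74 for Bcas1 and 1.42 for Ms4a10. Gja1 (connexin 43), the main gap junction protein of these cells, had 11.85, 11.71 and 11.87 in R2i and 10.49, 10.13 and 11.42 in PD (1.13, SE 0.22, adjusted p = 0.00388).

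The start-site window of Copz2, the largest fall with a RefSeq window, lies at chr11:96849626-96849925 on the plus strand of GRCm38.p6 and holds 1 GC-rich SMAD1/5 element, in capitals.
Copz2: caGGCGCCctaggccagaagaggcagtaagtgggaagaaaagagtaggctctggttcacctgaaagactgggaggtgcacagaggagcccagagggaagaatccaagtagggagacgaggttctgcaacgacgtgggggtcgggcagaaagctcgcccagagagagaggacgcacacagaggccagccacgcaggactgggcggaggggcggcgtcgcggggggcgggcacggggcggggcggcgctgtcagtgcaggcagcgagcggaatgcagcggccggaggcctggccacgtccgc

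To place PD replicate 3 without using it to choose genes, its level was set between the mean of R2i (0) and the mean of the other PD arrays (1) for the 98 genes called without it. The median position was 0.65 (quartiles 0.45 and 0.83), and 65 of the 98 genes lay below 0.75. Each of the other 5 B20 arrays, left out in turn, had a median between 0.97 and 1.08. For those 5 the PD mean included PD replicate 3, so their scale differs from the one used for that array. The median of PD replicate 3 was 0.46 for genes higher in R2i and 0.70 for genes lower in R2i, so PD replicate 3 was not equally shifted for both.

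PD replicate 3 did not sit between the media for every gene. Cadps2, a gene of vesicle release, had 7.17, 6.95 and 6.84 in R2i and 5.67, 5.96 and 7.05 in PD, a position of -0.05, and Eps8l2, Casp14 and Sulf1 lay at -0.01 to 0.11. These 4 genes, named after their values were seen, were not 2-fold calls with PD replicate 3 in the fit. Apoa2 (position 0.20), Gja1 (0.26) and Akr1b8 (0.29) also lay near R2i but remained calls. Apoa2 did not pass without R2i replicate 3, PD replicate 1 or PD replicate 2 (adjusted p = 0.05 to 0.0605, and 4.96e-05 to 0.0605 over 17 other settings). In contrast Trh (1.35), Hormad2 (1.23), Dppa3 (1.21), Igfbp7 (1.16), Id4 (1.15) and Krt42 (1.14) were as far from R2i as in the other PD arrays or farther, and 17 of the 98 genes lay at 0.9 or above.

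**Figure D4:**
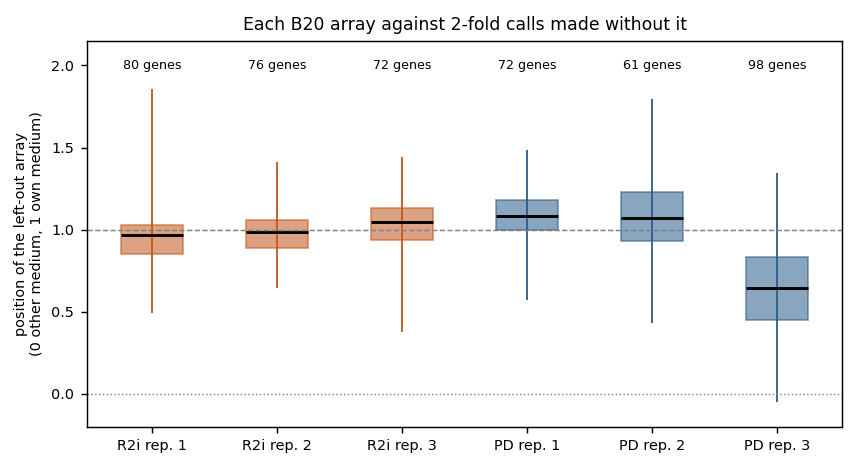
Position of each left-out B20 array between the mean of the other medium (0) and the mean of the remaining arrays of its own medium (1), over the 2-fold calls made without that array (number of genes at the top). Boxes span the quartiles, black lines are medians and thin lines run to the lowest and highest gene. PD replicate 3 has a median of 0.65, and the other 5 arrays have medians of 0.97 to 1.08. For those 5 the PD mean includes PD replicate 3.

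Line B18, also C57BL/6 and also derived in PD plus SB, was measured in the same media. Each line had a chip to itself, and chip cannot be told apart from line. Of the 77 genes called in B20, 72 had the same sign in B18, 59 passed there in that direction and 39 were 2-fold there too. Over all 9207 genes, 15.1% passed in B18 in either direction (685 higher and 706 lower), and 1.27% were 2-fold in either direction. The share of all genes with the same sign in both lines was not computed. Lefty2 and Lefty1 were likewise detected on no R2i array of B18, and were at least 17.67-fold and 16.9-fold lower. Of the 852 genes past the test in B20, 357 passed in B18 in the same direction and 21 in the opposite one.

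The difference between the lines was tested directly as the B20 change minus the B18 change. It passed for 392 genes (4.26%), and for 18 of the 77. The 77 were chosen by their B20 change, which is part of this difference, so these shares cannot be compared. The count over all genes was 767 (8.33%) without PD replicate 3 of B20, 217 without R2i replicate 2, 208 without R2i replicate 3, 196 without PD replicate 1 and 198 without PD replicate 2. The 5 genes of opposite sign in B18 were Ms4a10, Osr2, Cbln1, Adgre5 and S100a13. S100a1 fell in B20 but changed by -0.11 in B18, a difference of -2.31 (SE 0.32, adjusted p = 0.000804). Trh fell in both lines, with log2 changes of -2.32 in B20 and -3.88 in B18 (difference 1.56, SE 0.24, adjusted p = 0.00211), with mean levels of 8.48 in R2i and 10.79 in PD for B20, and 6.86 in R2i and 10.74 in PD for B18. Ripply3 changed by -1.90 in B20 and -0.94 in B18 (difference -0.95, adjusted p = 0.00801).

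Other genes moved more in B18 than in B20. Dppa3 rose by 1.08 in B20 and by 3.15 in B18 (difference -2.07, SE 0.24, adjusted p = 0.00022). Its mean was 7.55 in R2i and 6.47 in PD for B20, and 8.16 in R2i and 5.01 in PD for B18, where 1 of 3 PD arrays detected it. Grb10, an imprinted adaptor gene of growth factor receptors, changed by -0.16 in B20 (not past the test) and rose by 1.86 in B18 (difference -2.01, SE 0.15, adjusted p = 1.51e-06). Gsc fell by 0.83 in B20 and rose by 1.00 in B18 (difference -1.83, adjusted p = 0.000285). Rhox9 changed by -0.50 and the water channel gene Aqp3 by -0.55 in B20, neither past the test, against rises of 1.41 and 1.40 in B18 (adjusted p of the differences 0.000298 and 0.000323). Both genes passed without PD replicate 3 in B20, with changes of -0.73 and -0.78.

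**Figure D5:**
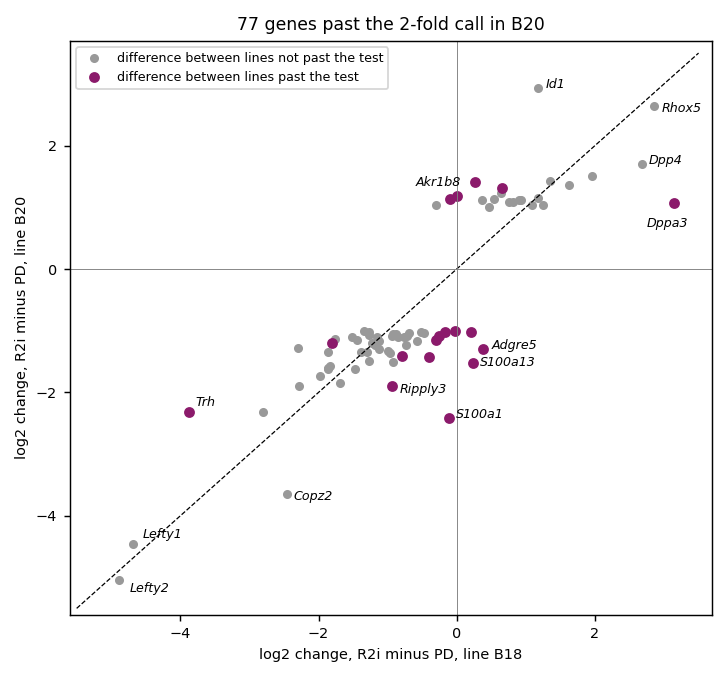
Log2 change of R2i minus PD in line B20 (vertical) against line B18 (horizontal) for the 77 genes called 2-fold in B20, with the line of equal change dashed. Purple points are the 18 genes past the test of the difference between lines, among them S100a1, S100a13, Adgre5, Trh, Dppa3 and Akr1b8. The Lefty genes lie near the dashed line, at -5.04 and -4.46 in B20 and -4.89 and -4.69 in B18 as fitted values below detection in R2i.

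On the MouseWG-6 platform, line B4 of C57BL/6 and line C17 of BALB/c had 1 array per medium each, and no test was made. For the C17 PD array the title names C17 and a cell line field names B4, and the title was used. Of the 77 genes, 22 rises and 44 falls were measured there. Of the rises 18 were higher in B4 and 15 in C17, with 14 higher in both, where 50% and 55.2% of all 8038 genes measured on both platforms were higher. Of the falls 40 were lower in B4 and 42 in C17, with 40 lower in both, where 49.8% and 44.7% of all genes were lower. Lefty2 had 7.47 in R2i and 9.95 in PD in B4, and was detected in both. In C17 it was detected only in PD (10.67). Hormad2 changed by 0.03 in B4 and -0.09 in C17, and Rhox5 by 0.53 in B4 and 0.45 in C17. H19 had 8.76 in R2i and 7.41 in PD in B4, whereas in C17 it was detected in R2i alone.

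Some of the 77 genes were neighbours. Of the 74 that could be placed, 9 (12.2%) had no other tested protein-coding gene between themselves and another of the 77. Of all 8775 tested genes placed, 1.66% lay beside 1 of the 77 in this sense, in which untested genes may lie between. Krt17 and Krt42 were neighbours on chromosome 11, and Fgf17 and the cytoskeletal gene Dmtn (-1.29) on chromosome 14. Dmtn and S100a13 were named after their values were seen.

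The pair S100a1 and S100a13 on chromosome 3 fell together in B20 (adjusted p of the difference from B18 0.000804 and 0.0174). S100a13, which encodes another calcium-binding S100 protein, had 7.03, 6.80 and 6.82 in R2i and 8.45, 8.98 and 7.80 in PD (-1.53, SE 0.27, adjusted p = 0.00168), and changed by 0.24 in B18. PD replicate 3 was the PD array nearest to R2i for both genes. Of the B18 changes, -0.11 for S100a1 and 0.24 for S100a13, neither passed. In the lines of the other platform S100a1 changed by -0.63 in B4 and -1.02 in C17. The start-site windows of both genes lie on opposite strands and share 204 bases. The S100a13 window, chr3:90514185-90514484 on the plus strand of GRCm38.p6, is shown with the bases shared with the S100a1 window (chr3:90514281-90514580, minus strand) in capitals.
S100a13: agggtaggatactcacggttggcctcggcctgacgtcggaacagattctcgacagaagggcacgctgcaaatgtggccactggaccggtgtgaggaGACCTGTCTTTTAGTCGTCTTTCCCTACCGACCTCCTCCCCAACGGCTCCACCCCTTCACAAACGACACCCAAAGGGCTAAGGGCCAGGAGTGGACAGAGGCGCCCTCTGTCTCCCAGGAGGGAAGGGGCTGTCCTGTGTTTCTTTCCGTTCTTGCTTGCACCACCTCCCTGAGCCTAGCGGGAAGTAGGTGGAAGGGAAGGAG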

How the data were processed

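RNA of B20 cells was hybridised to Illumina bead arrays. The deposited probe profiles hold raw bead signal intensity and a detection p-value per probe, set against negative control beads. The authors also deposited normalised log2 values, used here as an alternative. GenomeStudio and limma are named, with no version, in the submitters' processing notes, and a genome build is not given in the sources used here. Intensities were background-corrected against 798 negative control probes and quantile normalised over the 16 arrays of the platform (neqc of limma 3.58.1, R 4.3.3, offset 16). Probes with a detection p below 0.01 on at least 2 arrays were kept, and the probe with the highest mean stood for a gene, which left 9207 genes. Symbols were updated with the RefSeq table of GRCm38.p6, by gene identifier for 23788 probes and by accession for 685, and 1224 kept the symbol of the file.

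The fit (lmFit, eBayes) had 1 mean for each of 6 combinations of line and medium and 10 residual degrees of freedom (9 without PD replicate 3 of B20), which borrows the spread of the B18 and 2i arrays. P-values were adjusted by Benjamini-Hochberg over all genes. Tested on simulated data with 200 changed genes among 9207, this comparison recovered 99.5% of genes changed by 1 log2 unit and 72.5% of those changed by 0.5 (99% and 56% without PD replicate 3). False calls were 2.9% to 7.4% of the genes that passed. For each gene the simulated spread was the same on every array, so PD replicate 3 was not set apart as in the data. The simulation therefore cannot tell what leaving out that array does here. No pairing by replicate number was used in this fit. Deviations of same-numbered R2i and PD arrays correlated at -0.08, 0.07 and 0.02. With 3 arrays a group and PD replicate 3 set apart, this cannot exclude that the numbers pair the arrays.

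The comparison and the 28 gene lists were chosen with earlier results of these data known, so the counts of lists are a description and no list was tested. The text names, among genes called 2-fold with and without PD replicate 3, the 12 that rose most and the 12 that fell most (no predicted, clone or RIKEN names). It also names up to 4 members per list past the test, by size of change, the 6 largest differences from B18, the 6 called genes with PD replicate 3 farthest from the other PD arrays, and a fixed set of pluripotency and pathway genes. The results of a few genes are not reported here. Other list members named were chosen after their values were seen. Alternatives changed the arrays, weights, background correction, scaling, filter, probe choice and threshold. The fit without PD replicate 3 of both lines was chosen after seeing the data.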

Additional observations from a re-analysis of the deposited data

Results flagged for a closer look

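The response to R2i against PD differed between lines B20 and B18, in a direct test of the difference, for 16 flagged genes. Other genes among the 92 named also passed this test and are given below. The values are log2 changes in B20 minus those in B18, so a negative value means a lower change in B20. Among the 16, those of S100a1 (-2.31), Dppa3 (-2.07), Grb10 (-2.01), Aqp3 (-1.95), Rhox9 (-1.90) and Gsc (-1.83) were the largest with a negative sign. Prdm14 (-0.98), Ripply3 (-0.95) and Sox2 (-0.63) followed. A naming rule picked S100a1, Dppa3, Grb10, Aqp3, Rhox9 and Gsc as the largest differences from B18. Their passing therefore largely follows from that choice. Over all 9207 genes tested the difference passed for 392 (4.26%), and the share among named genes cannot be compared with this. Positive differences among the 16 were found for Trh (1.56), Ms4a10 (1.24), Akr1b8 (1.19), Gadd45g (1.15), Plac8 (0.67), Fgf17 (0.61) and Dnmt3b (0.50). Outside the 16, the difference also passed for other list members named by rule. These were Atf5 (-1.03), Spic (-0.92), Xbp1 (-0.91), Bcl3 (-0.80), Cldn4 (-0.65), Igf2 (0.73) and Egln3 (0.56). Line and chip cannot be told apart in these differences. Without PD replicate 3 of B20 all 16 passed the test with the same sign, the adjusted p ranging up to 0.0334.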

How the results depend on the processing

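The 77 genes called 2-fold became 19 (3 higher, 16 lower) without background correction, 296 at a threshold of 1.5-fold and 171 in a test against 1.2-fold. Leaving out 1 B20 array gave 61 to 98 such calls, 495 to 1158 genes at any fold and 196 to 767 differences between lines. With B20 arrays only, 530 genes passed at any fold against 852, a fit with fewer residual degrees of freedom. Array weights, in which PD replicate 3 had 0.419, the lowest of 16, raised the differences between lines to 946, and the cause was not tested. With the replicate block the counts were 77, 807 and 317, and whether the numbers pair the arrays is not known. Without PD replicate 3 of both lines they were 98, 1031 and 530. No gene past the test among the 92 named changed sign, whereas Axin2 (-0.12 to 0.25) and Dusp6 (-0.18 to 0.11), not past the test, did. Leaving out 1 B20 array ended the call of 4 to 16 of the named genes, and 11 lost it with B20 arrays only. Without PD replicate 3 of B20, 5 named genes no longer passed, among them Nanog, Dpysl3, Socs2 and Itgb5, and 2 now did (Aqp3 and Rhox9). Changes of genes near background, such as Id1 (1.34 without background correction against 2.94), are limited by signal over background.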
